A study of Mus musculus with 12 samples.

Results

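The 31 genes described here encode the machinery of fatty acid oxidation. They were chosen by symbol from the deposited gene count table, where each has 1 row among 40800 genes. They are grouped by role into fatty acid uptake and activation, the carnitine shuttle, the enzymes of beta-oxidation, electron transfer, transcriptional regulators, and genes of fuel switching and uncoupling. The values come from bulk RNA sequencing of mouse heart ventricles at embryonic day 12.5, with 6 control libraries and 6 libraries of the genotype labelled wnt gof, that is, Wnt gain of function (Wnt GOF). The labels name neither the engineered allele nor a Cre driver, and no strain or sex. They do not say whether a library holds 1 embryo or several, so every p-value here rests on the variation among libraries, part of which may be technical.

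Fatty acids reach cardiomyocytes, in part after lipoprotein lipase has released them, are activated to acyl-CoA, and enter mitochondria as carnitine esters. There a repeating cycle of dehydrogenation, hydration, a further dehydrogenation and thiolysis shortens the chain to acetyl-CoA, and electrons pass through electron transfer flavoprotein to the respiratory chain. The nuclear receptor PPAR alpha and the coactivators encoded by Ppargc1a and Ppargc1b switch many of these genes on. The embryonic heart is known to rely mainly on glucose and lactate, with fatty acid oxidation rising around birth.

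Deposited counts summed to 10130088 to 17526325 per library. Axin2, a standard target of Wnt signalling read as a check of the labels, lay at 1.39 to 4.13 CPM (read counts scaled to a common TMM-adjusted library size) in control and at 14.9 to 26.0 CPM in 5 Wnt GOF libraries, but at 3.77 CPM in the library labelled Wnt GOF 5. Controls 2 and 3 and Wnt GOF 1 and 2 stood apart from the other 8 libraries. They formed 1 of 3 sets when libraries were clustered by their deviations from the group means, also with the 31 genes left out. The labels name no batch. In these 4 libraries the summed level of 10 cardiomyocyte markers was 38524 to 42720 CPM, against 29904 to 34757 CPM in the other 8. Their 9 erythroid markers summed to 8139 to 11308 CPM, against 13647 to 90125 CPM elsewhere. In bulk tissue, fewer cells of a type and less RNA per cell cannot be told apart.

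Many of the fatty acid oxidation genes were abundant in control ventricles at this stage. Per kilobase of exon, Etfb, a subunit of electron transfer flavoprotein, stood highest at 402.9 ± 50.1 CPM per kb (SD, n = 6), next to the long-chain acyl-CoA dehydrogenase Acadl at 388.3 ± 107.9. The levels of these 2 did not differ beyond their spread. The thiolase Acaa2 followed at 261.2 ± 63.2 CPM per kb, then Etfa at 232.5 ± 30.2 and the fatty acid binding protein Fabp3 at 201.2 ± 38.8, neighbours whose spreads again overlapped. Acadm, the medium-chain dehydrogenase, was at 110.5 ± 20.2 CPM per kb. Etfb and Acadl stood at the 99.4th and 99.3rd percentile of 14740 tested genes with a length, Acaa2 at 98.9, Etfa at 98.7, Fabp3 at 98.5 and Acadm at 97.2. Other members stood lower, among them Hadhb at 73.7, Cpt1a at 63.4, Acsl1 at 59.4, Acaa1a at 46.7 and Cpt1b at 26.3.

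The lower end of the order held the receptor, isoforms known from the adult heart and skeletal muscle, and the peroxisomal thiolase Acaa1a. The level of Acaa1a was 3.67 ± 0.211 CPM per kb in control libraries. Ppara, which encodes PPAR alpha, was at 0.909 ± 0.440 CPM per kb in control libraries and stood at the 17.4th percentile. Cpt1b, the muscle isoform of the enzyme that forms acylcarnitine at the outer mitochondrial membrane, was at 1.55 ± 0.609 CPM per kb, below its liver-type counterpart Cpt1a at 7.20 ± 1.85. Ucp3, an uncoupling protein homologue of skeletal muscle, had 0 to 13 reads per library and was the only member that the low-count filter left untested. Exon lengths count every base of any exon annotated to the gene in GENCODE M21, which may not be the annotation behind the counts. These per-length levels and their order are therefore approximate. By CPM alone, Acadl at 778.6 ± 216.3 stood above Etfb at 469.0 ± 58.3 in control libraries.

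**Figure D1:**
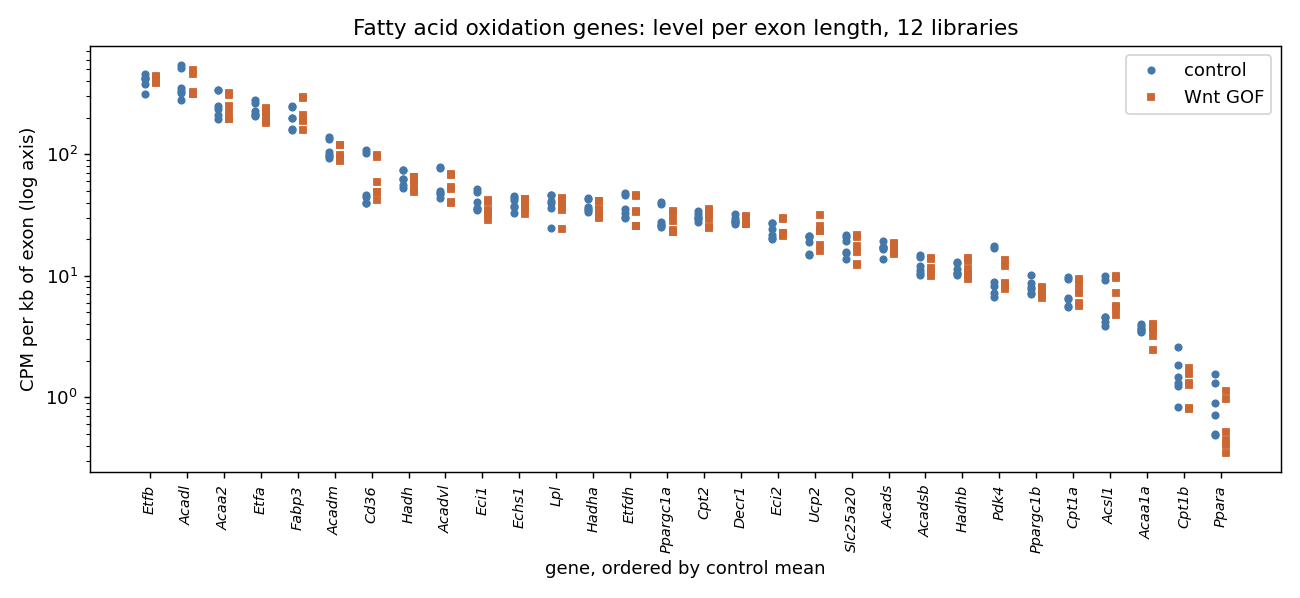
Level of 30 fatty acid oxidation genes in each of 12 libraries, as CPM per kilobase of exon on a log axis (circles, control; squares, Wnt GOF), ordered by control mean; Ucp3, with 0 to 13 reads, is left out. Control means run from 402.9 CPM per kb for Etfb to 0.909 for Ppara, and the points of the groups overlap for every gene shown.

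None of the 30 tested genes was called between Wnt GOF and control ventricles, by edgeR's quasi-likelihood test at a Benjamini-Hochberg adjusted p under 0.05 or by DESeq2 or limma-voom. Over all 14774 tested genes, 0.501% were called by edgeR. At an unadjusted p under 0.05 all 3 tools gave 0 of the 30, and edgeR gave 6.3% of all tested genes, 3.73% higher and 2.57% lower. The groups overlapped in each of the 30, and 0.46% of all tested genes did not overlap. Of the 30 log2 fold changes, 9 lay above 0 and 21 below, with a median of -0.08 against 0.00 for all tested genes, of which 50.4% lay above 0. The range ran from -0.51 for Ppara to 0.29 for Ucp2. Without control replicate 2 the split was 16 above and 14 below, and it was the same without control replicate 3. It was 5 above and 25 below without Wnt GOF replicate 2, and 10 above and 20 below without all 4 libraries that stood apart. Without Wnt GOF replicate 5, whose Axin2 lay in the control range, it was 11 above and 19 below, and 0 were called. The members vary together between libraries, so these splits are not counts of independent genes.

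A p above the threshold does not show equal levels, so the intervals matter. For 24 of the 30 genes (80%) the 95% interval of the fold change lay within 1.5-fold in either direction, against 71.3% of all tested genes. The other 6 were Cd36, Acsl1, Cpt1b, Ppara, Pdk4 and Ucp2, whose intervals reach past that bound. Intervals are wider for genes with few reads, and at a mean of 10 CPM or more the order was reversed. At that level the share within 1.5-fold was 85.7% of 28 members, against 92.6% of 9179 tested genes. For 29 of the 30 the interval lay within 2-fold, and Ppara was the exception. In the authors' deposited table, all 31 genes are listed and 0 have an adjusted p under 0.05, where 0.13% of its genes do. The log2 fold changes in the authors' deposited table and in edgeR had the same sign for 29 of 30 genes and differed by at most 0.08.

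**Figure D2:**
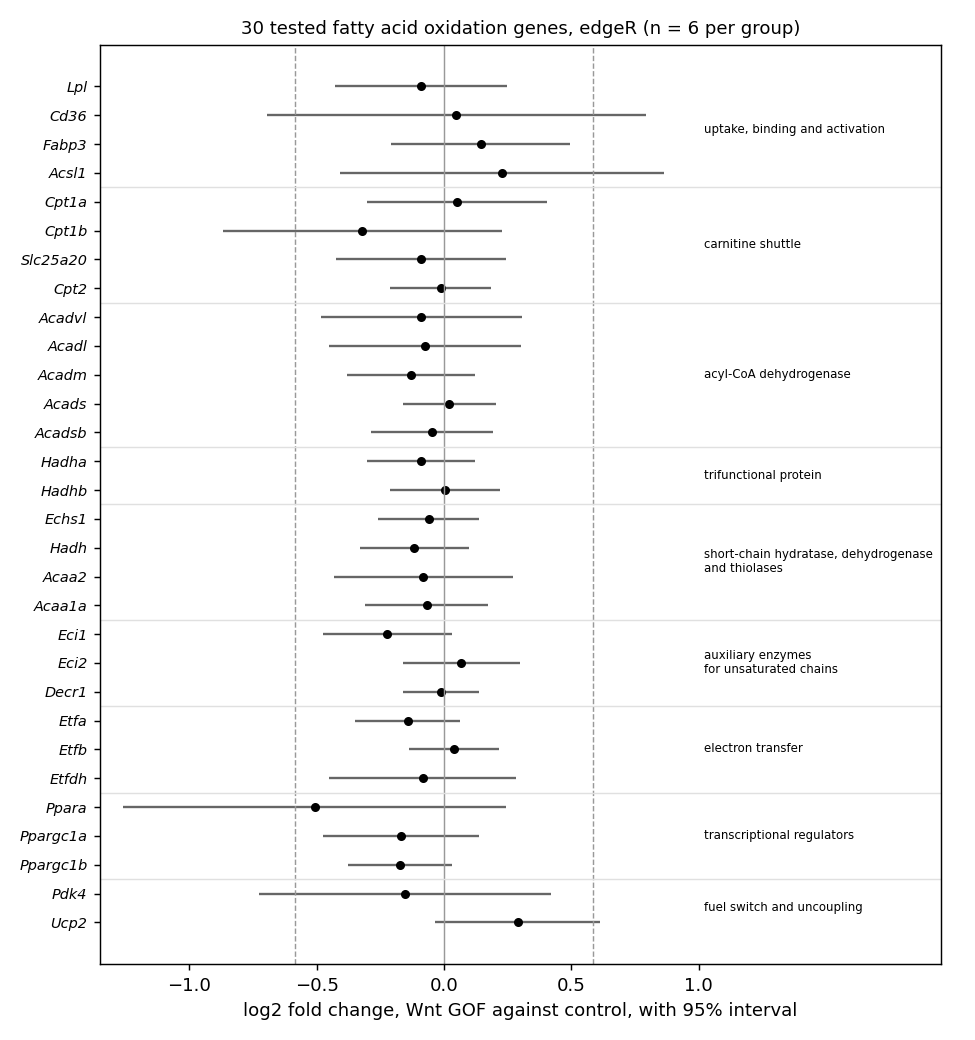
Log2 fold change of the 30 tested genes, Wnt GOF against control (points), with 95% intervals (lines) from edgeR, grouped by role; dashed lines mark 1.5-fold in either direction. Every interval includes 0, and the widest belongs to Ppara at -0.51.

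At the step of uptake and activation, lipoprotein lipase, the secreted enzyme that frees fatty acids from triglyceride, was the most abundant by reads. Lpl lay at 258.0 to 486.6 CPM (median 422.0) in control and at 251.4 to 459.9 (median 390.2) in Wnt GOF libraries. Control 6 and the library labelled Wnt GOF 5 were the lowest of their groups. Cd36, the membrane transporter of long-chain fatty acids, ranged from 142.1 to 392.0 CPM (median 162.5) in control and from 151.6 to 353.7 (median 194.8) in Wnt GOF libraries. Its high values were controls 2 and 3 and Wnt GOF 1 and 2, at 343.3 CPM or more, with the other 8 libraries at 213.0 or less. The log2 fold change was 0.05 with an interval from -0.70 to 0.79.

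Fabp3, which carries fatty acids in the cytosol, had a log2 fold change of 0.14 ± 0.164 (SE) and lay at 129.7 to 244.8 CPM over all 12 libraries. A pseudogene copy, Fabp3-ps1, has 122 to 295 reads per library against 1506 to 4067 for Fabp3, so reads may have been split between them. Acsl1, the main acyl-CoA synthetase of the adult heart, was at 63.4 ± 28.9 CPM in control and 74.2 ± 23.4 in Wnt GOF libraries (n = 6 each), which edgeR put at 0.23 ± 0.291 on the log2 scale. Without the 4 libraries that stood apart, Acsl1 was at 0.43 (edgeR adjusted p = 0.347).

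In the carnitine shuttle, Cpt1a lay at 42.4 to 74.4 CPM in control (median 49.4) and at 43.3 to 71.5 (median 57.1) in Wnt GOF libraries. Cpt1b lay at 2.82 to 8.73 CPM (median 4.67) and 2.71 to 5.82 CPM (median 4.36). The groups overlapped for both genes. The translocase Slc25a20 was at 86.2 ± 16.3 and 81.0 ± 19.1 CPM. Cpt2, which rebuilds acyl-CoA on the inner membrane, was at 72.7 ± 5.28 and 72.1 ± 10.6 CPM, with a log2 fold change of -0.01 and an interval from -0.21 to 0.18.

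The share of Cpt1b among the reads of Cpt1a and Cpt1b does not depend on library scaling. It was 8.49% ± 1.63 in control and 6.75% ± 0.896 in Wnt GOF libraries (SD, n = 6), from 6.24% to 10.5% and from 5.59% to 7.95%. The difference of -1.74 percentage points had p = 0.0498 in an exact two-sided permutation test, and 0.0996 when adjusted over the 4 gene pairs tested, so it missed the threshold. With permutations kept within the library sets, which were chosen from these data, the adjusted p was 0.037 (exact permutation test). Without control replicate 5 the adjusted p was 0.026 (exact permutation test). In the other 13 of 15 alternatives the Cpt1b share was not called. Its adjusted p was 0.254 with the closest libraries summed and 0.229 without the 4 libraries that stood apart (exact permutation test). In GENCODE M21, 81.4% of the exon bases of Cpt1b also belong to the overlapping gene Gm44502, whose identifier is not among the count table's rows, so the Cpt1b count is uncertain.

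Among the acyl-CoA dehydrogenases, which open each cycle and differ in the chain length they accept, the largest log2 fold change in size was -0.13. Acadl lay at 564.2 to 1080 CPM (median 684.0) in control and at 629.4 to 980.5 (median 644.7) in Wnt GOF libraries. The 4 libraries that stood apart held its 4 highest values, from 908.5 CPM upward, and none of the other 8 exceeded 698.0. Acadm lay at 363.8 to 544.0 CPM (median 394.7) and 342.4 to 464.8 CPM (median 376.3), a log2 fold change of -0.13 ± 0.118.

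The very-long-chain enzyme Acadvl was at 153.4 ± 42.6 and 144.2 ± 33.4 CPM. It shares 42.9% of its exon bases with Dvl2 on the opposite strand, and no source used here gives the strand setting of the counting. Acads, for short chains, had an interval from -0.16 to 0.21 around a log2 fold change of 0.02. Acadsb, which acts on short branched chains from isoleucine, was at 87.2 ± 13.9 and 84.4 ± 12.5 CPM.

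The trifunctional protein on the inner membrane carries the remaining steps for long chains, with the hydratase and dehydrogenase in the Hadha subunit and the thiolase in Hadhb. Hadha lay at 293.6 to 381.0 CPM (median 316.2) in control and at 260.4 to 362.4 (median 307.0) in Wnt GOF libraries. Hadhb lay at 66.3 to 85.4 CPM (median 71.9) and 61.5 to 91.3 CPM (median 72.2). Their log2 fold changes were -0.09 ± 0.0992 and 0.00 ± 0.102. Across the 12 libraries their deviations from the group means had r = 0.97, given as a description because the points share libraries and depth.

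The read share of Hadha within the pair was lower in Wnt GOF libraries, by about 1 percentage point. It was 81.5% ± 0.253 in control, from 81.3% to 81.9%, and 80.5% ± 0.618 in Wnt GOF libraries (SD, n = 6), from 79.8% to 81.4%. The 2 groups overlapped only through Wnt GOF 6. The difference of -0.983 points had p = 0.00649 in an exact two-sided permutation test and 0.026 adjusted over the 4 gene pairs. Within the library sets, the adjusted p was 0.037 (exact permutation test). The call was lost without control replicate 1, 3 or 4 (adjusted p = 0.0519 for each in the exact permutation test), when the closest libraries were summed (0.0635), and without the 4 libraries that stood apart (0.229, where the smallest unadjusted p that 4 against 4 allows is 0.0286).

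Hadha and Hadhb are transcribed away from each other, so the RefSeq windows of 250 bases before to 50 bases after each start share 228 bases, and the starts lie 273 bases apart. Promoter windows were found for 26 of the 31 genes, 27 windows in all, in RefSeq tables of build GRCm38.p6. They are described as sequence alone, and no link between motifs and expression levels was tested. Both strands were searched for the hexamer AGGTCA of nuclear receptors, for its direct repeat with 1 base between the copies, as bound by PPAR with RXR, and for the ERR element TCAAGGTCA, which contains the hexamer. Both strands were also searched for the GC box, written GGGCGG, for the CCAAT box and for the TATA box, written TATAAA. The 4 windows shown stand for the trifunctional pair, for Cpt1a and for Cd36, and capitals mark GC boxes, CCAAT boxes and the hexamer on either strand.
Hadha, chr5:30154931-30155230, minus strand: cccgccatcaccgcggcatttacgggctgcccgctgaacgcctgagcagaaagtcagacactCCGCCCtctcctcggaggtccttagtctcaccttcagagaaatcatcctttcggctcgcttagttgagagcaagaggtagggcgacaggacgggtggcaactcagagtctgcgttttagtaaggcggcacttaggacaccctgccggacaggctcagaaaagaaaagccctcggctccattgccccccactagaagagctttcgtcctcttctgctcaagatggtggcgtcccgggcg
Hadhb, chr5:30155003-30155302, plus strand: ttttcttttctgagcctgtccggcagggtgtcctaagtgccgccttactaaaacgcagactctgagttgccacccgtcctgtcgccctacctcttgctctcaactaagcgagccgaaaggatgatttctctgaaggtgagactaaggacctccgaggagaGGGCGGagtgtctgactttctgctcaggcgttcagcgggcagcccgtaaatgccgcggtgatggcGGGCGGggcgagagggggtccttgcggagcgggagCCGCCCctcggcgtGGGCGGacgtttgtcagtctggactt
Cpt1a, chr19:3323051-3323350, plus strand: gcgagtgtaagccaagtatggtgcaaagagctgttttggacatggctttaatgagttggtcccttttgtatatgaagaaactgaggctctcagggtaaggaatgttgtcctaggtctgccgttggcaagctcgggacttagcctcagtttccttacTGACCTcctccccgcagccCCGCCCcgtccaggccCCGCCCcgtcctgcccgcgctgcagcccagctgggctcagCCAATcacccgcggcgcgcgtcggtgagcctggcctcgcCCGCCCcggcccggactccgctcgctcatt
Cd36, chr5:17835847-17836146, minus strand: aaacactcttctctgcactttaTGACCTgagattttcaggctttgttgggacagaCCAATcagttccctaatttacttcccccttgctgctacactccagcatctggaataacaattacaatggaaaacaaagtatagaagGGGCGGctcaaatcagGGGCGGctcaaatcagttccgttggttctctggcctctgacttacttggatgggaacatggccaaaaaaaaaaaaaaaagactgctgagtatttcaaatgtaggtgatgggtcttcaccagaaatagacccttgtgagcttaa

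The single GC box of the Hadha window and the first of 4 in the Hadhb window are the same 6 bases, at position 30155163 and onward of chromosome 5, read from opposite strands. GC boxes stood in 19 of the 27 windows, against 35.7% of all 32851 windows of the same length. The median G and C content was 60.7% in the members' windows and 52.7% in all windows. The hexamer AGGTCA stood in 6 windows, those of Acadm, Acadvl, Cd36, Cpt1a, Echs1 and Ucp3, against 16.3% of all windows. The CCAAT box stood in 10, against 37.4%. The direct repeat, the ERR element and the TATA box stood in 0 of the 27, against 0.0396%, 0.423% and 13.6% of all windows, which says only that these letters are not in these windows. The Hadha, Hadhb and Cpt1a windows had 58.7%, 60.7% and 62.3% G and C, and the Cd36 window had 43.0%.

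The soluble enzymes that finish shorter chains had log2 fold changes from -0.12 to -0.06. Echs1, the short-chain hydratase, lay at 272.0 to 374.9 CPM (median 327.3) in control and at 268.9 to 357.7 (median 303.7) in Wnt GOF libraries. Hadh, the dehydrogenase for short hydroxyacyl chains, lay at 264.6 to 368.1 CPM (median 310.3) and 244.8 to 325.8 CPM (median 299.4). Acaa2, the mitochondrial thiolase, lay at 293.3 to 515.9 CPM (median 367.9) and 296.6 to 479.8 CPM (median 354.2). In all 3, controls 2 and 3 and Wnt GOF 1 and 2 held the 4 highest values.

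Acaa1a, the thiolase of peroxisomes, did not share this pattern. It was at 16.2 ± 0.932 CPM in control and 15.4 ± 2.53 in Wnt GOF libraries, and Wnt GOF 1 was its lowest library. Of the enzymes that handle unsaturated chains, Eci1, the mitochondrial isomerase of double bonds, was at 87.8 ± 16.0 CPM in control and 75.2 ± 10.8 in Wnt GOF libraries. Its log2 fold change was -0.22 ± 0.120, with an edgeR adjusted p of 0.910. A block for library set gave Eci1 an edgeR adjusted p of 0.0652, the lowest of any member over 24 alternatives. Eci2 was at 129.1 ± 17.6 and 135.4 ± 21.3 CPM. Decr1, the dienoyl-CoA reductase, varied little, with 102.7 to 125.8 CPM in control and 102.3 to 120.0 in Wnt GOF libraries.

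Electron transfer flavoprotein takes electrons from the acyl-CoA dehydrogenases, and Etfdh passes them to ubiquinone. Etfa lay at 374.7 to 507.8 CPM (median 404.7) in control and at 328.8 to 443.3 (median 385.8) in Wnt GOF libraries. Etfb lay at 367.5 to 535.1 CPM (median 487.2) and 447.2 to 516.3 CPM (median 484.0). Although they form 1 heterodimer, the deviations of Etfa and Etfb had an r of only 0.22 across the 12 libraries, against 0.97 for the trifunctional pair, and this difference was not tested.

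The share of Etfa among the reads of the pair was 47.6% ± 3.67 in control and 44.4% ± 3.36 in Wnt GOF libraries, with p = 0.145 and 0.193 adjusted over the 4 gene pairs (exact two-sided permutation test, n = 6). In GENCODE M21, 53.0% of the exon bases of Etfb also belong to Gm45233, whose identifier is not among the count table's rows. Etfdh lay at 223.7 to 362.5 CPM (median 256.7) in control and at 192.8 to 348.1 (median 253.6) in Wnt GOF libraries, with the 4 libraries that stood apart again highest.

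**Figure D3:**
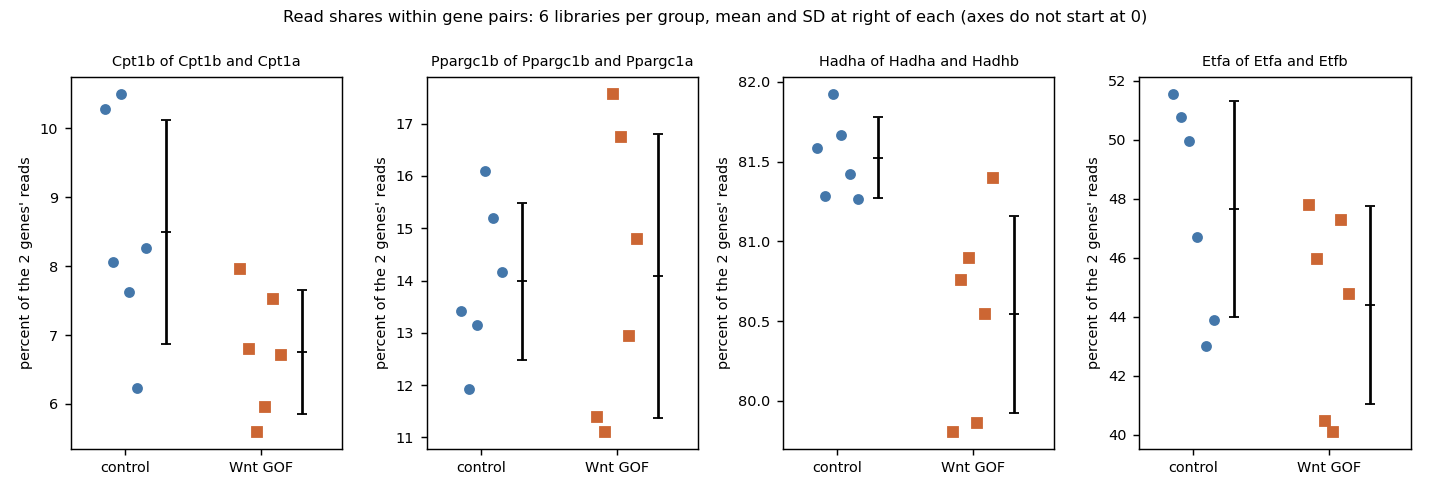
Percent of the reads of each gene pair that fall on the first gene, in 6 control (circles) and 6 Wnt GOF libraries (squares), with mean and SD beside each group; the axes do not start at 0. The Hadha share ran from 81.3% to 81.9% in control and from 79.8% to 81.4% in Wnt GOF libraries, and the other 3 pairs missed the adjusted threshold.

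The 3 transcriptional regulators all had log2 fold changes below 0 and none was called. Ppara lay at 1.86 to 5.95 CPM (median 3.07) in control and at 1.33 to 4.28 (median 1.84) in Wnt GOF libraries, and edgeR estimated -0.51 ± 0.353 as its log2 fold change, with an adjusted p of 0.999. Ppargc1a lay at 166.4 to 265.6 CPM (median 177.7) and 150.5 to 222.5 CPM (median 171.1), and Ppargc1b at 28.3 to 40.2 CPM (median 31.4) and 26.2 to 32.1 CPM (median 27.7). Both had a log2 fold change of -0.17, with standard errors of 0.143 and 0.0964. Controls 2 and 3 were the 2 highest libraries for each of the 3 genes. The share of Ppargc1b among the reads of the coactivator pair ran from 11.9% to 16.1% in control and from 11.1% to 17.6% in Wnt GOF libraries, with p = 0.937 and also 0.937 adjusted (exact two-sided permutation test, n = 6).

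Pdk4, the kinase that shuts off pyruvate dehydrogenase when fatty acids are burned, lay at 23.3 to 62.0 CPM (median 29.9) in control and at 27.2 to 47.4 (median 30.2) in Wnt GOF libraries. Its 4 highest values again came from the 4 libraries that stood apart. Ucp2, a carrier of the inner mitochondrial membrane found in many cell types, had the lowest unadjusted p of all members, 0.0753 (edgeR adjusted p = 0.889). It lay at 103.3 to 149.1 CPM (median 139.0) in control and at 112.2 to 219.7 (median 162.6) in Wnt GOF libraries, with the library labelled Wnt GOF 5 highest. The log2 fold change of 0.29 ± 0.151 stayed above 0 in all 24 alternatives but was 0.18 without Wnt GOF replicate 5 and 0.11 without the 4 libraries that stood apart. Its difference between the groups was not the same in the 3 library sets, at 0.45, 0.70 and -0.32 on the log2 scale, and the macrophage and leukocyte markers, cells in which Ucp2 is known to be abundant, summed to 94.8 to 130.8 CPM in control and 117.4 to 144.7 CPM in Wnt GOF libraries. Of these 10 markers 8 had a log2 fold change above 0, 4 of them with an unadjusted p under 0.05, 0 were called, and none was at 0 throughout. Their part in the Ucp2 values was not tested.

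The same libraries were high for most of the genes. In 23 of the 30 tested genes (76.7%), controls 2 and 3 and Wnt GOF 1 and 2 were the 4 highest of the 12 libraries, and this held for 6.29% of all tested genes. These libraries were singled out after their values were seen, so this is a description. The exceptions were Lpl, Cpt2, Acads, Acaa1a, Etfb, Ppargc1b and Ucp2, and none of the 30 was lowest in all 4. Under the other 4 scalings the count was 21 to 23. Of the 30, Cd36, Acsl1, Ppara and Pdk4 varied most in control libraries, with standard deviations of 45.6% to 51.5% of the mean.

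The summed level of the 10 cardiomyocyte markers moved with this pattern. Ttn and Actc1, with control means of 10269 and 10035 CPM, weighed most in that sum, which averaged 36192 CPM in control libraries. When each gene was divided by the summed level of the 10 markers in the same library, the 4 libraries remained highest for Cd36, Pdk4, Acadl and Acaa2, 4 of the 30, against 0.961% of all tested genes. The marker sum is itself highest in these 4 libraries, so the division lowers them for any gene. Cd36 then lay at 8.56 to 9.44 CPM per 1000 CPM of markers in these 4 and at 4.12 to 7.12 in the other 8. Of the marker genes themselves, 4 of 10 for cardiomyocytes were highest in the 4 libraries, against 6.29% of all tested genes. Lowest in them were 4 of 8 tested erythroid, 4 of 7 epicardial and 3 of 7 cushion mesenchyme and fibroblast markers. Of all tested genes 6.68% were lowest in them. The epicardial marker Msln went the other way and was highest in them. So were 1 of 8 endothelial and endocardial markers and 2 of 6 mural cell markers. The 7 epicardial markers summed to 252.4 to 277.5 CPM in these 4 libraries and to 294.8 to 356.2 CPM in the other 8, and the cushion and fibroblast sums overlapped. The part of these cell types in the pattern was not tested.

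**Figure D4:**
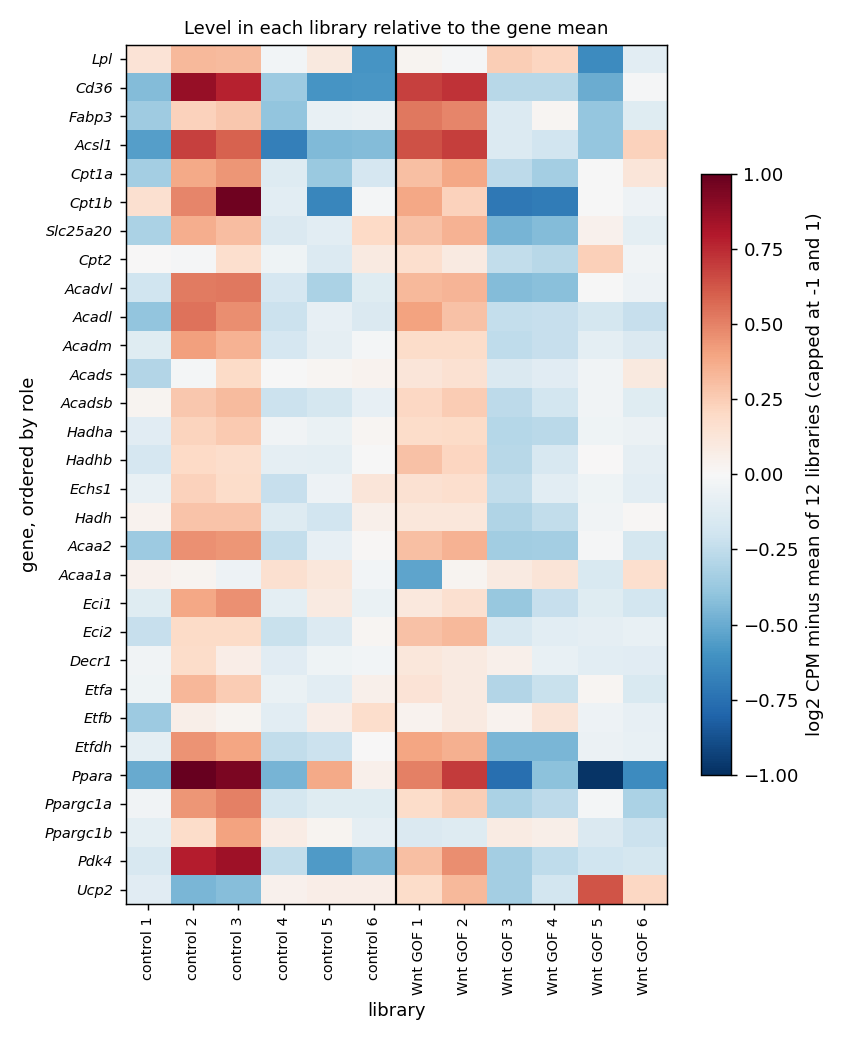
Log2 CPM of the 30 tested genes in each library, minus the gene's mean over 12 libraries (red, above; blue, below; colours capped at -1 and 1), with control left and Wnt GOF right of the line. Controls 2 and 3 and Wnt GOF 1 and 2 hold the 4 highest values in 23 of the 30 genes.

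Among the 435 pairs of tested members, the median correlation of the deviations from the group means was 0.77. Of these pairs, 296 were above 0.5 and 19 below -0.5, and pairs over all tested genes were not measured. Among the closest were Cpt1a with Acadvl at 0.98 and Hadha with Etfdh and Hadhb at 0.97. Lpl and Ucp2 ran against each other at -0.81, and Acaa1a had a median of -0.52 with the other members. These values rest on 12 libraries whose depth and cell makeup all genes share, and on the split into 4 and 8 libraries.

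**Figure D5:**
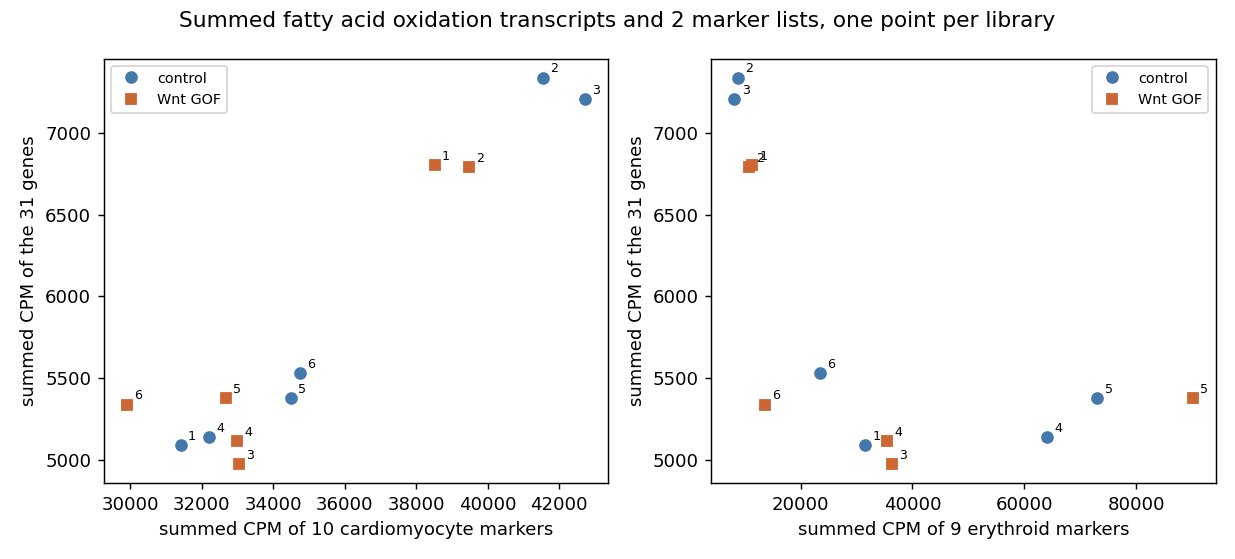
Summed CPM of the 31 genes in each library (numbers are replicates) against the summed CPM of 10 cardiomyocyte markers (left) and 9 erythroid markers (right). The libraries with the highest sums, 6791 to 7338 CPM, are controls 2 and 3 and Wnt GOF 1 and 2, and the other 8 lie between 4975 and 5529 CPM.

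Each library set holds 2 control and 2 Wnt GOF libraries, so the genotypes can also be compared within the sets. In 11 of the 30 genes (36.7%) the Wnt GOF mean was below the control mean in all 3 sets, against 13.8% of all tested genes. In 3 it was above in all 3, against 13.4%. The 11 were Cpt1b, Acadm, Acadsb, Hadha, Hadh, Echs1, Eci1, Etfa, Etfdh, Ppara and Ppargc1a, and the 3 were Acsl1, Eci2 and Etfb. When edgeR was given the sets as a block, 0 of the 30 were called, where 2% of all tested genes were. At an unadjusted p under 0.05 there were 8 lower members, against 6.34% of all tested genes, and 1 higher, against 6.23%. Together they were 30% of the 30, against 12.6% of all tested genes. The members vary together between libraries (median correlation 0.77, a value that includes differences between the sets). Correlation within the sets was not measured, so these counts and the 11 of 30 cannot be read as counts of independent genes.

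The 8 lower ones with the block were Eci1 at -0.22, Ppara at -0.53, Ppargc1a at -0.16, Etfa at -0.14, Acadm at -0.12, Hadh at -0.11, Ppargc1b at -0.17 and Cpt1b at -0.31 on the log2 scale. Acsl1 was the higher one, at 0.28. Their edgeR adjusted p-values ran from 0.0652 to 0.366. Because clustering of the same data defined the sets, p-values with this block can be too small. Without the 4 libraries that stood apart, 0 of the 30 were called, against 0.0135% of all tested genes. Acsl1, Cd36 and Ppara then had an unadjusted p under 0.05, 3 of 30 against 5.96% of all.

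In the wider pathway edgeR called 0 of 119 tested genes, in 7 lists outside the 31 members, where 0.501% of all tested genes were called. Of the 119, 7 passed an unadjusted p of 0.05, against 6.3% of all tested genes, a share near the background. The genes named from each list are those with its lowest p. Of 17 genes of fatty acid transport and activation, 1 had an unadjusted p under 0.05, Vldlr, a receptor for triglyceride-rich lipoproteins, at 99.5 ± 19.7 and 81.4 ± 7.49 CPM. Of 17 genes of carnitine, malonyl-CoA and AMPK control, Prkaa2, a catalytic subunit of AMPK, was at 213.9 ± 45.7 and 178.9 ± 18.4 CPM (edgeR adjusted p = 0.792). Acacb, which makes the malonyl-CoA that inhibits the carnitine shuttle, had a log2 fold change of -0.22.

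Of 21 further mitochondrial genes, Acot13, a thioesterase, was at 173.3 ± 19.8 and 150.6 ± 5.57 CPM (edgeR adjusted p = 0.535), and Acad11 had a log2 fold change of 0.25. Of 16 peroxisomal genes, the transporters Abcd2 and Abcd3 had log2 fold changes of 0.51 and -0.14. Of 12 lipid droplet and lipolysis genes, Mgll, which cleaves monoglycerides, had one of -0.82 (edgeR adjusted p = 0.801) and the lipase Pnpla2 one of -0.14. Median log2 fold changes of these 5 lists lay between -0.05 and 0.01, against 0.00 over all tested genes.

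Of 20 nuclear receptors and coregulators, 2 had an unadjusted p under 0.05. Klf15, a factor known to promote lipid use in the adult heart, was at 2.12 ± 1.04 CPM in control and 1.27 ± 0.281 in Wnt GOF libraries. Esrrb was at 6.31 ± 2.04 and 4.52 ± 0.754 CPM. Neither was called, and the edgeR adjusted p of Esrrb was 0.626. The median log2 fold change of the list was -0.06, with 14 of 20 below 0. Of 16 genes of pyruvate and ketone body oxidation, the pyruvate dehydrogenase phosphatase Pdp2 had a log2 fold change of 0.28 and the pyruvate carrier subunit Mpc2 one of -0.16.

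The pattern of the 4 libraries extended to some of these lists. Acat1, Acot2, Ech1, Hibch, Ivd, Mcee and Mut, 7 of the 21 further mitochondrial genes, were highest in them. So were 5 of the 12 lipid droplet genes, among them Pnpla2, its activator Abhd5 and its inhibitor G0s2, and 5 of 16 pyruvate and ketone genes, among them Pdha1 and Pdhb. In the carnitine, malonyl-CoA and AMPK list 0 of 17 were, and in all tested genes 6.29%.

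Markers of other cells that use fatty acids were low, with 1 adipocyte marker above the rest. Of 7 hepatocyte markers, Serpina1a had no read in any library, Alb was at most at 1.75 CPM, and Afp was at most at 20.9 CPM. The hepatocyte list summed to 1.39 to 12.6 CPM in control and 2.99 to 30.6 CPM in Wnt GOF libraries. Of 6 adipocyte markers, Lep had no read, and Adipoq, Plin1, Ucp1 and Retn were at most at 0.201 CPM. The sixth, Cidea, a lipid droplet protein, lay at 1.42 to 7.14 CPM in control and 1.56 to 5.80 CPM in Wnt GOF libraries, and was highest in the 4 libraries that stood apart.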

How the data were processed

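Per the labels' protocols, Trizol was used for RNA and Illumina's protocols for libraries. Read counts per gene were deposited as whole numbers, beside a GC percent column of the deposited annotation that was not used. Subread, featureCounts and edgeR are named per the submitters' processing notes. Their versions, the genome build, the annotation and the strand setting were not given in the labels or headers. The authors' deposited comparison table holds log2 CPM, log2 fold changes, p-values and a log-odds score, per the file headers.

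Of 41422 rows, 622 that repeat a gene with identical counts were left out. Counts were analysed with edgeR 4.0.16 in R 4.3.3: filterByExpr (minimum count 10), TMM scaling, robust quasi-likelihood test with group as the only term, Benjamini-Hochberg over 14774 genes, called under 0.05. The fit was tested on simulated data, with genes and libraries drawn independently and so without the library sets seen here. CPM uses TMM-scaled sizes. Read shares of 4 gene pairs were compared by exact permutation over 12 libraries. Alternatives included DESeq2 1.42.0 and limma-voom (limma 3.58.1), other scalings and filters, blocks, and left-out libraries. Leaving out 4 libraries together and permuting within library sets were chosen after seeing the data.

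The members, lists and tests were chosen with earlier results of these data known. All members are reported. Each wider list is represented by its called genes and the 2 lowest p-values, except that 1 gene is not reported here. Genes named beyond this rule, such as those highest in the 4 libraries, and the marker genes with values, were named after their values were seen. Intervals cover the spread between libraries only.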

Additional observations from a re-analysis of the deposited data

Results flagged for a closer look

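Ucp3 in the control group had 1 library far from the others. Control 3 was at 0.746 CPM, from 13 reads, while the next control library was at 0.302 CPM and the lowest at 0.0885 CPM. Of 72 groups of 6 values examined in this way 1 stood out, and chance gives about 1 in 20.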

How the results depend on the processing

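No member was called in any of 24 alternatives, and the median log2 fold change of the members stayed between -0.12 and 0.00, from -0.08. Of the 30 members 15 kept their sign in all 24 alternatives, and Hadhb, at 0.00, changed it in 13. The number of genes called over the whole table, 64 higher and 10 lower, was less stable. It was 135 and 25 by DESeq2, 3 and 3 by limma-voom, 195 and 100 when library sets entered as a block, 0 and 1 with the closest libraries summed, 0 and 2 without the 4 libraries that stood apart, and 97 higher without a count filter. With single libraries left out it ran from 34 (without Wnt GOF replicate 2) to 149 higher (without Wnt GOF replicate 5) and from 4 (without Wnt GOF replicate 3) to 28 lower (without Wnt GOF replicate 5). Leaving out Wnt GOF replicate 1 gave 35 and 5, Wnt GOF replicate 4 gave 37 and 5, and control replicate 3 gave 6 lower. The cause was not tested.

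The replicate block called 0 members, with 1 at an unadjusted p under 0.05, and 55 genes in all. The labels do not say whether replicate numbers pair the libraries. Correlations of same-numbered deviations ran from -0.428 to 0.517, which does not settle it. The Hadha share differed by -0.983 points over 12 libraries, by -1.15 to -0.835 with single libraries left out, by -0.880 with the closest libraries summed and by -0.813 without the 4 libraries. The Cpt1b share differed by -1.74 points over 12 libraries and by -2.19 to -1.34 with single libraries left out. Permutation within the library sets keeps the same -1.74 points, so it gives no second estimate. The share was called there, at the smallest unadjusted p that 216 splits allow (0.00926, exact permutation test). The Etfa and Ppargc1b shares were called in no alternative. Cpt1b, with 28 reads in its lowest library, Ppara with 18 and Ucp3 with 0 are limited by depth.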
